A study of Mus musculus with 6 samples.

Results

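Neurofilament and neuronal cytoskeleton genes were examined across 6 RNA libraries of the mouse cochlear modiolus, the central core of the cochlea that houses the spiral ganglion neurons (SGNs). The genes were chosen by name. Of the 10 listed symbols (Nefh, Nefl, Nefm, Ina, Tubb3, Stmn2, Mapt, Map2, Map1b and Uchl1), 8 had a transcript in the count table, out of 33676 genes with a listed transcript, and all 8 passed the filter on low counts. Ina and Map1b are named only and were not analysed here. The libraries came from C57BL/6 mice, 3 from the control group and 3 from the degenerated group. For the degenerated group, male mice of 8 weeks had received kanamycin sulfate under the skin (1 g/kg) and, 30 min later, furosemide into the abdomen (0.4 g/kg). Control mice had received saline, and tissue was taken at day 30. The drugs kill hair cells, the sensory cells that SGNs innervate, and SGN degeneration in this model comes after hair cell loss. The labels give the cell type as spiral ganglion neuron, but the material was whole modiolus and not sorted neurons. The labels do not say whether libraries of a group came from separate animals or pools, so p-values measure only the spread between these samples, which may be technical.

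Neurofilaments are the intermediate filaments of neurons. The light (Nefl), medium (Nefm) and heavy (Nefh) chains assemble together into the filaments that set axon calibre, and the SGNs, whose large myelinated axons make up the auditory nerve, are rich in them. Tubb3 encodes the neuronal class III beta-tubulin, one of the building blocks of microtubules. Stmn2 encodes a stathmin that binds free tubulin and is needed for axon regrowth, Mapt encodes tau, and Map2 encodes the dendritic microtubule-associated protein. Uchl1 encodes an abundant neuronal deubiquitinase and is used as a marker of neurons.

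The heavy chain differs from the other chains in its long tail, in which the 3 residues Lys-Ser-Pro recur as sites for phosphorylation. Nefh-201, the single annotated transcript of Nefh (GRCm38 chr11:4938754-4948064, minus strand), held 51 runs of Lys-Ser-Pro codons among its 1090 codons, against 4 of 848 codons in Nefm-201 and 0 of 543 codons in Nefl-201. A stretch of 144 bases from codons 519 to 566 (chr11:4940920-4941063, minus strand) is shown because it holds 8 of those runs, printed in capitals.
Nefh-201: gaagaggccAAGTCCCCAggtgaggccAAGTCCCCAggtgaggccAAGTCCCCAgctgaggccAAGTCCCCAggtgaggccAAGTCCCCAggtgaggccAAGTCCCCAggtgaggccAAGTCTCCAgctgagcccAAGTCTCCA

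Over the listed transcripts, the libraries held between 12480876 and 15549319 counts. Every annotated transcript was listed for only 17789 of the 33676 genes, so these totals need not be the whole library. The 8 genes took 0.914%, 0.666% and 0.688% of the gene-matched counts in controls 1 to 3, and 0.515%, 0.600% and 0.434% in degenerated libraries 1 to 3. The 3 neurofilament chains made up between 74.4% and 84.4% of those member counts in every library. SGN markers summed to 4290 to 5835 CPM (counts scaled to a common library total with TMM factors) in controls, so neuronal RNA was present as labelled, and so was RNA of other cells: Schwann cell and myelin markers summed to 5471 to 9673 CPM, bone cell markers to 1855 to 2357 CPM, and blood cell markers, mostly haemoglobin, to 6482 to 51716 CPM. On the first principal component, with 30.2% of the variance, control 1 lay with degenerated 1 and 2, and controls 2 and 3 lay with degenerated 3, so the libraries did not separate by group on it.

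Transcript levels of all 3 neurofilament chains were lower in the degenerated modiolus, to between 60.1% and 67.7% of the control mean, with every degenerated library below every control library, whereas Tubb3 and Uchl1 stood at 97.3% and 95.0% of control with overlapping groups. None of the 8 genes passed the call rule, which asked for p under 0.01 before adjustment in edgeR's quasi-likelihood test and for a log2 fold change beyond 0.2 in size. The rule was met by 2.73% of the 14118 genes tested. None passed an adjusted p of 0.05 either, and neither did any gene of the table (0%), although 1367 genes had an unadjusted p under 0.05 and DESeq2 put 263 genes higher and 120 lower at that adjusted p. The neurofilament chains were the 3 members with an unadjusted p under 0.05, all lower, against 3.60% of all genes with such a p and a lower level. Over 15 analyses, p was under 0.05 in 13 for Nefh, 12 for Nefl and 11 for Nefm. With 1 library left out, it rose to as much as 0.052, 0.084 and 0.095 in the quasi-likelihood test. Groups did not overlap in 4 of the 8 members (Nefh, Nefm, Nefl and Stmn2, all lower), against 7.37% of all genes. The median log2 fold change of the 8 genes was -0.42, against -0.003 over all genes.

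**Figure D1:**
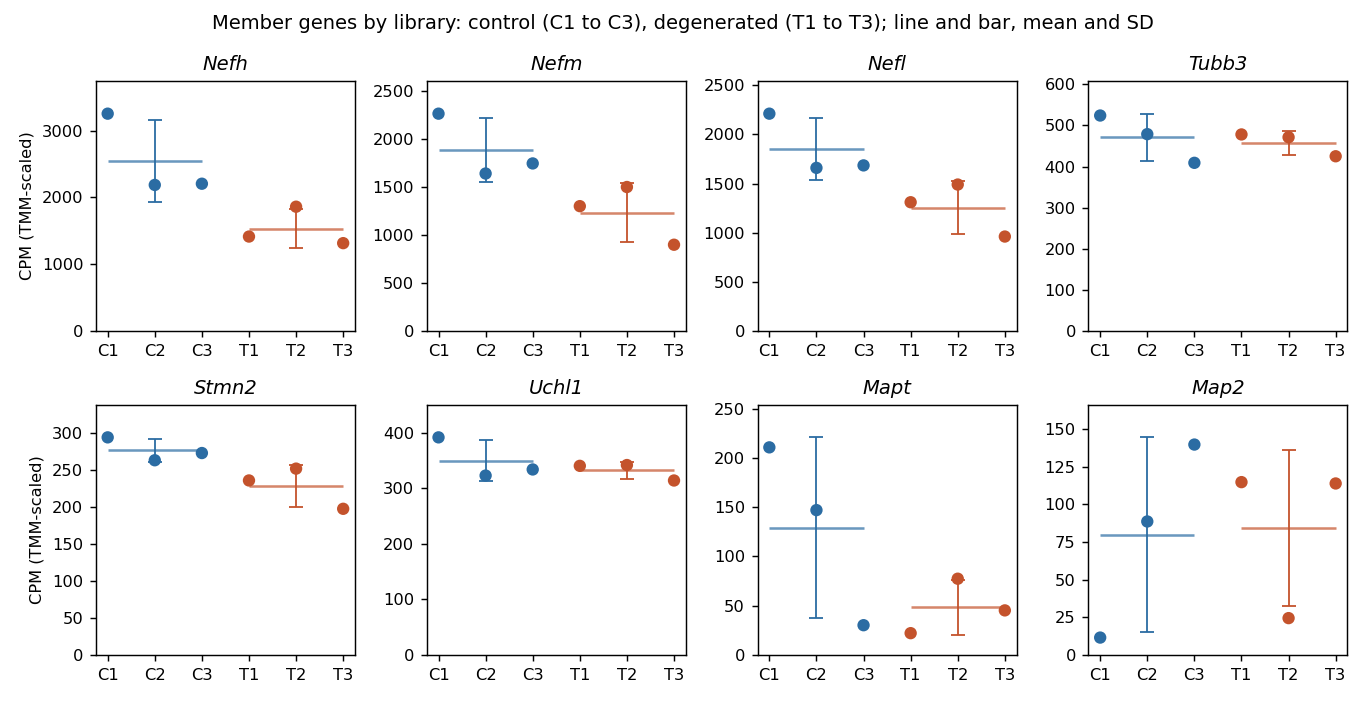
Level of each of the 8 genes (CPM, scaled by TMM, linear axis from 0) in control libraries C1 to C3 (blue) and degenerated libraries T1 to T3 (orange), with the group mean as a line and the SD as a bar. In Nefh, Nefm, Nefl and Stmn2 the 3 orange points lie below the 3 blue points, in Tubb3 and Uchl1 they overlap, and Mapt and Map2 vary severalfold within a group.

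Nefh had the highest counts of the members. Its level was 3252, 2187 and 2205 CPM in controls 1 to 3 and 1415, 1861 and 1316 CPM in degenerated libraries 1 to 3, or 2548 ± 610 against 1531 ± 290 CPM (SD, n = 3 each). Control 1 stood above the other controls, and the lowest control was still above the highest degenerated library. The log2 fold change was -0.73 ± 0.22 (SE, 95% interval -1.27 to -0.20), which missed the call rule at an unadjusted p of 0.0153 and an adjusted p of 0.401 by edgeR's quasi-likelihood test. Nefh passed the call rule in 4 of the alternative analyses, one of which left out degenerated replicate 2, and over all of them its adjusted p ranged from 0.114 to 0.642.

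Nefm, on chromosome 14 (GRCm38 chr14:68082590-68124846, minus strand), read 2265, 1642 and 1747 CPM in the controls and 1302, 1502 and 901 CPM in the degenerated libraries. Means were 1885 ± 334 and 1235 ± 306 CPM (SD, n = 3 each), and the log2 fold change was -0.61 ± 0.23 (SE, interval -1.17 to -0.05), with an adjusted p of 0.480 by edgeR's quasi-likelihood test. The groups did not overlap, with degenerated 3 lowest. Nefl lies beside Nefm on the opposite strand (chr14:68083863-68089095). It read 2210, 1659 and 1685 CPM in controls and 1310, 1490 and 962 CPM in degenerated libraries, again with degenerated 3 lowest and no overlap. Its log2 fold change was -0.56 ± 0.21 (SE, interval -1.06 to -0.06), with an adjusted p of 0.473 by the same test.

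The light and medium chains kept nearly the same proportion. The ratio of Nefm to Nefl counts lay between 0.936 and 1.04 in all 6 libraries. The ratio of Nefh to Nefl counts was 1.47, 1.32 and 1.31 in controls and 1.08, 1.25 and 1.37 in degenerated libraries, so the groups overlapped. Summed over the 3 chains, the level was 7728, 5488 and 5637 CPM in controls and 4028, 4853 and 3179 CPM in degenerated libraries, 64.0% of the control mean. The pan-neuronal markers as a list, of which Snap25 was the most abundant, summed to 4855, 3561 and 3700 CPM in controls and 2848, 3342 and 2313 CPM in degenerated libraries. Without Snap25 they summed to 1531, 1091 and 1042 CPM in controls and 1124, 1067 and 813 CPM in degenerated libraries, and the groups overlapped. SGN markers summed to 4290 to 5835 CPM in controls and 2532 to 3905 CPM in degenerated libraries, but without Calb2, their most abundant gene, to 2040 to 2769 CPM and 1460 to 2160 CPM, which overlapped. The separation of both sums thus rested on 1 gene each. Gene by gene, all degenerated libraries lay below all controls in 3 of 13 tested pan-neuronal markers and above them in 3. For SGN markers this held for 2 and 1 of 13, and over all 14118 genes for 1040 and 1459. The part of the pan-neuronal and SGN markers in the neurofilament result was not tested, and in bulk tissue fewer neurons and less RNA per neuron cannot be told apart. Schwann cell and myelin markers overlapped between groups, at 4836 to 7648 CPM in degenerated libraries.

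The levels of the chains beside those of Tubb3, Uchl1 and Stmn2 can be put as ratios of counts within a library, which no normalization factor touches. The ratios were chosen after those levels had been seen, so they describe the same observation on another scale and are given with no test. Nefh counts were 6.21, 4.57 and 5.39 times the Tubb3 counts in controls and 2.96, 3.95 and 3.10 times in degenerated libraries, a log2 difference of -0.69. Against Uchl1 the log2 difference of Nefh was -0.66, and against Stmn2 it was -0.44. Nefm and Nefl gave -0.59 and -0.54 against Tubb3, -0.56 and -0.50 against Uchl1, and -0.35 and -0.29 against Stmn2. None of these 9 ratios overlapped between groups. The 9 ratios share numerators and denominators and are not independent of each other.

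**Figure D2:**
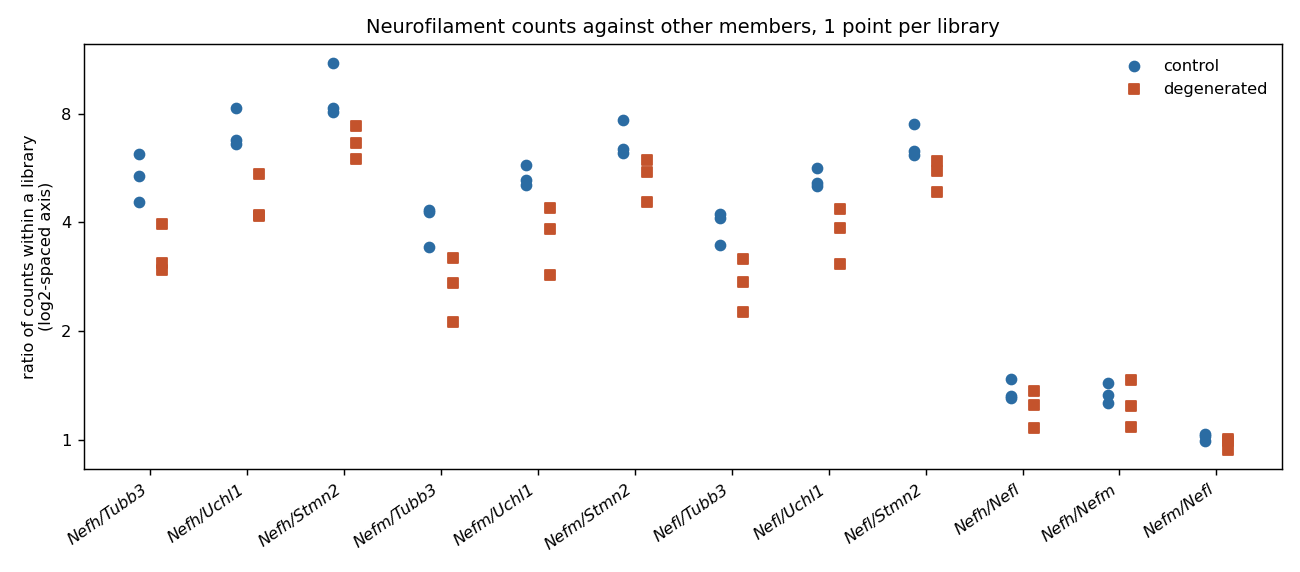
Ratio of counts of a neurofilament chain to another member within each library (vertical axis spaced by log2), with 1 point for each control (blue circles) and degenerated (orange squares) library. In the 9 ratios to Tubb3, Uchl1 and Stmn2 all squares lie below all circles, and in the 3 ratios between chains the groups overlap.

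Of Tubb3 (chr8:123411424-123422015, plus strand), 1 of 2 annotated transcripts was listed, so its sum is partial. It read 524, 479 and 409 CPM in controls and 478, 471 and 425 CPM in degenerated libraries. The degenerated libraries lay within the range of the controls. The log2 fold change was -0.04 ± 0.13 (SE), and its 95% interval, -0.34 to 0.27, bounds how large a difference in either direction these libraries leave room for. Uchl1 (chr5:66676091-66687234, plus strand) read 391, 323 and 334 CPM in controls and 340, 342 and 314 CPM in degenerated libraries, with a log2 fold change of -0.07 ± 0.11 (SE, interval -0.35 to 0.20). Of its 4 annotated transcripts only Uchl1-201, the coding one, was listed, so the Uchl1 sum is partial too. Uchl1-201 shares 244 of its 1177 bases with the antisense gene Uchl1os. The kit in the labels does not mark strand, so reads of the pair cannot be told apart there.

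Stmn2 (chr3:8509360-8561606, plus strand) read 294, 263 and 273 CPM in controls and 236, 252 and 198 CPM in degenerated libraries. The groups did not overlap, but by a narrow margin between control 2 and degenerated 2. The level was 277 ± 15.8 against 229 ± 27.9 CPM (SD, n = 3 each), and the log2 fold change was -0.28 ± 0.12 (SE, interval -0.58 to 0.02), with an adjusted p of 0.555 by edgeR's quasi-likelihood test. All 4 annotated transcripts of Stmn2 were listed. Stmn2-201, its single coding transcript, held between 96.0% and 99.3% of the counts in every library. The retained-intron transcript Stmn2-202 had 25, 21 and 15 counts in controls and 135, 28 and 12 counts in degenerated libraries. Its high value came from degenerated 1 alone, and the log2 fold change of 1.52 ± 0.90 (SE) became 0.06 without that library.

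Length has to be taken into account before levels of different genes are compared. On the TPM scale (counts per kilobase of each listed transcript, scaled to the same total in every library), control means were 1177 for Nefh, 1041 for Nefm, 1008 for Nefl, 545 for Uchl1, 462 for Tubb3, 247 for Stmn2, 51.2 for Mapt and 38.2 for Map2. The SDs between controls were 363, 256 and 238 TPM for the 3 chains, and the order was read within each library. Nefh stood above Nefm and Nefm above Nefl in 3 of 3 controls, and in 5 of all 6 libraries for either pair. Uchl1 stood above Tubb3, and Tubb3 above Stmn2, in 6 of 6 libraries. Mapt stood above Map2 in 2 of 3 controls and in 3 of 6 libraries, so that pair had no order. In TPM the lowest control and the highest degenerated library changed places for Nefh, at 941 TPM in control 2 and 955 TPM in degenerated 2, and the count of members without overlap went from 4 to 0. Haemoglobin and other blood cell markers held 14.1% of all TPM in control 2 and 1.61% in degenerated 2. With the blood list left out of the total, control 2 stood at 1096 TPM and degenerated 2 at 971 TPM, and 4 members again had no overlap, as they did in CPM with no normalization factor. Overlap was counted on these further scales after the values had been seen. The share of all genes without overlap was not counted on them, so these counts have no background.

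**Figure D3:**
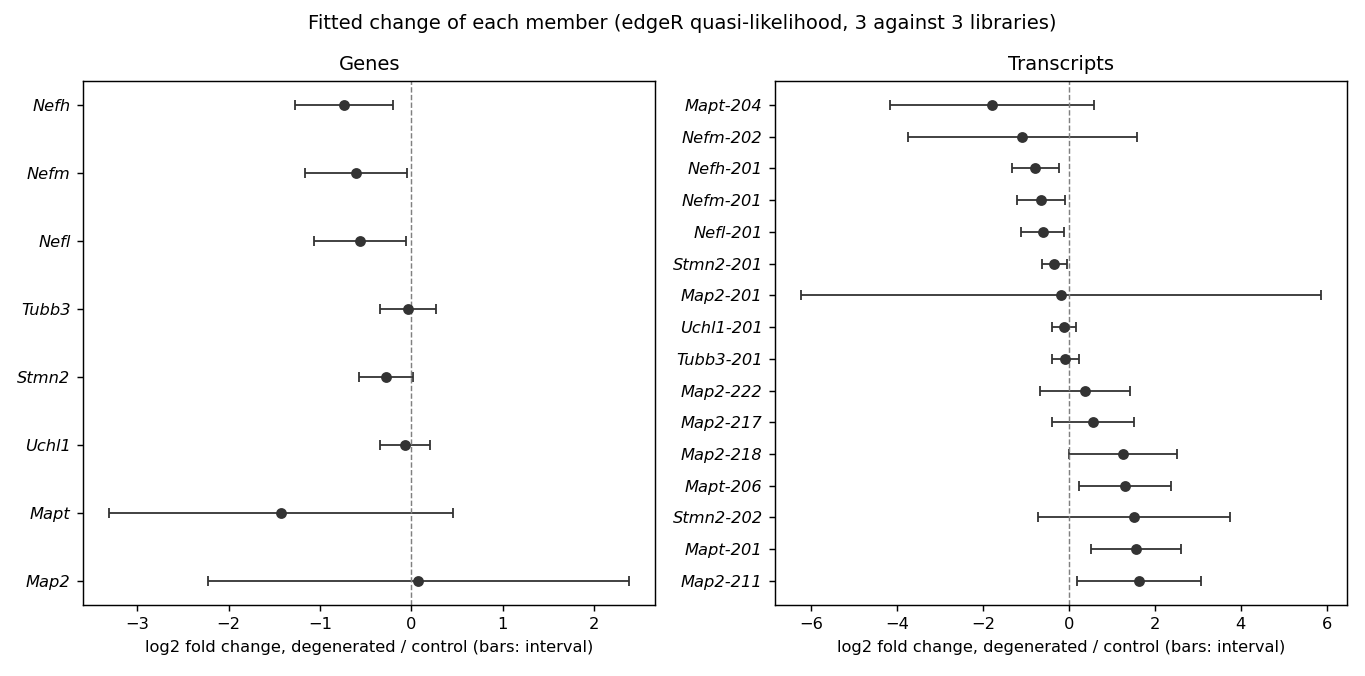
Log2 fold change of degenerated over control libraries with its 95% interval for the 8 genes (left) and the 16 transcripts tested (right), from edgeR's quasi-likelihood fit to 3 against 3 libraries. Intervals of Nefh, Nefm and Nefl lie below 0, those of Tubb3 and Uchl1 are narrow and span 0, and those of Mapt-204 and Map2-201 are several log2 units wide.

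Mapt and Map2 varied severalfold within each group. The table listed 5 of the 12 annotated transcripts of Mapt (chr11:104231390-104332090, plus strand), and 7 of the 24 of Map2 (chr1:66175273-66442583, plus strand). Transcripts without a row were not analysed here, so both gene sums are partial. Mapt read 211, 147 and 30.2 CPM in controls and 22.1, 77.4 and 45.2 CPM in degenerated libraries. Control 3 lay below 2 of the degenerated libraries, and the log2 fold change was -1.42 ± 0.77 (SE, interval -3.31 to 0.46). Map2 read 11.5, 88.6 and 140 CPM in controls and 115, 24.4 and 114 CPM in degenerated libraries, with a log2 fold change of 0.08 ± 0.94 (SE).

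Across transcripts, 0 of the 16 that passed the filter were called by edgeR's quasi-likelihood test, against 1.79% of all 26065 transcripts tested, and none had an adjusted p under 0.05, against 0.0153%. At an unadjusted p under 0.05, 4 were lower (Nefh-201, Nefl-201, Nefm-201 and Stmn2-201, against 3.11% of all transcripts) and 4 were higher (Mapt-201, Mapt-206, Map2-211 and Map2-218, against 4.44%). In 3 of the latter, all but Map2-218, every degenerated library lay above every control, against 9.13% of all transcripts. The higher ones were all low in counts, with at most 221 in any library.

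Mapt-204 carried most of the listed Mapt counts. In coding sequence, Mapt-201 differed from it by exons near the start. They also differ outside the coding sequence. Mapt-204 has 5253 bases and ends at position 104332090, whereas Mapt-201 has 1362 bases and ends at 104328219. Which of these differences the counts of the transcripts rest on was not tested. Mapt-201 contains 2 coding exons of 87 bases each that Mapt-204 lacks, which code for the inserts in the amino-terminal projection domain of tau. They are shown because they are the coding sequence by which the transcript with the higher counts in degenerated libraries differs from the main one (chr11:104287123-104287209 and chr11:104289908-104289994, GRCm38, plus strand).
First insert exon of Mapt-201: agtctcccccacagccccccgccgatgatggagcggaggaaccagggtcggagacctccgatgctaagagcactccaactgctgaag
Second insert exon of Mapt-201: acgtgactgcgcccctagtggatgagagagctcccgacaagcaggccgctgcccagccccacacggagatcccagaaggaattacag

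The 93-base exon at chr11:104318157-104318249 was present in all 3 listed coding transcripts of Mapt. Mapt-204 had 3114, 2019 and 406 counts in controls and 140, 924 and 480 counts in degenerated libraries, with a log2 fold change of -1.79 ± 0.96 (SE, interval -4.16 to 0.59). The groups overlapped. Mapt-201 had 37, 25 and 48 counts in controls and 136, 117 and 59 counts in degenerated libraries, so that all degenerated libraries were above all controls. Its log2 fold change was 1.56 ± 0.43 (SE, interval 0.51 to 2.61), with an unadjusted p of 0.0112 and an adjusted p of 0.564 by edgeR's quasi-likelihood test, and over the alternatives the adjusted p ranged from 0.039 with DESeq2 to 0.887. The noncoding Mapt-206 had 25, 13 and 13 counts in controls and 38, 53 and 30 in degenerated libraries, a log2 fold change of 1.30 ± 0.43 (SE).

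Mapt-201 made up 1.16%, 1.20% and 10.1% of the listed Mapt counts in controls and 42.1%, 10.6% and 10.3% in degenerated libraries. Control 3, in which Mapt-204 was low, had nearly the share of degenerated 2 and 3. Relative to the other listed transcripts of the gene, the log2 change was 3.04 for Mapt-201 (unadjusted p of 0.00767, adjusted p of 0.775) and 2.78 for Mapt-206 (unadjusted p of 0.00740, adjusted p of 0.763) in edgeR's transcript usage test. An unadjusted p under 0.01 was reached by 1.10% of all transcripts in that test and an adjusted p under 0.05 by 0.241%. None of the 12 member transcripts tested for usage reached the latter. With 1 library left out, both Mapt transcripts stayed under 0.01 before adjustment without control 3, Mapt-201 alone did without degenerated 2, and neither did without any of the other 4.

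**Figure D4:**
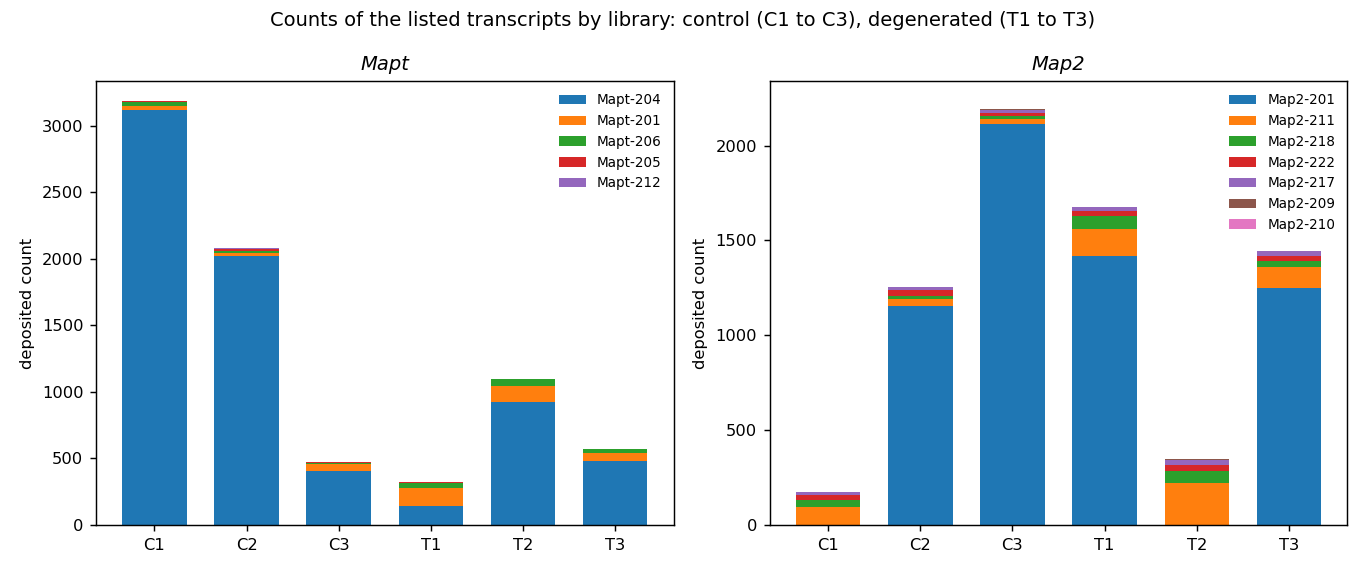
Deposited counts of the listed transcripts of Mapt (left) and Map2 (right), stacked within each control (C1 to C3) and degenerated (T1 to T3) library, with axes from 0. Mapt-204 ranges from 140 counts in T1 to 3114 in C1, and Map2-201 is at 0 in C1 and T2 while it holds at least 1153 counts in each of the other libraries.

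Map2-201, the longest listed Map2 transcript with 5195 bases, had 0, 1153 and 2112 counts in controls and 1415, 0 and 1249 counts in degenerated libraries. A count of 0 in libraries of this depth allows up to 0.198 CPM in control 1 and 0.211 CPM in degenerated 2, for counting error only. The same 2 libraries still had counts of the other Map2 transcripts, since Map2-211 had 93 in control 1 and 221 in degenerated 2. No fold change of Map2-201 can be read from these libraries (log2 value -0.18 ± 2.44, SE). Map2-211, a noncoding transcript, had 93, 40 and 26 counts in controls and 145, 221 and 109 in degenerated libraries, a log2 fold change of 1.63 ± 0.59 (SE, adjusted p of 0.631 by edgeR's quasi-likelihood test). Map2-218 had 38, 16 and 18 counts in controls and 71, 65 and 31 in degenerated libraries, a log2 fold change of 1.26 ± 0.51 (SE). Map2-217 and Map2-222 had log2 values of 0.55 ± 0.39 and 0.38 ± 0.43 (SE).

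Nefm-202, the minor transcript of Nefm, extends across the neighbouring Nefl locus. Its last exon (chr14:68082590-68084970) covers 1108 bases of Nefl-201 on the other strand, 30.1% of its own length and 32.8% of Nefl-201. It had 180, 108 and 8 counts in controls and 21, 60 and 52 in degenerated libraries, never more than 0.526% of the Nefm counts. Since the kit does not mark strand, its counts cannot be told apart from reads of Nefl, which had at least 12186 counts in every library. The log2 value was -1.09 ± 1.07 (SE), and within the Nefm sum it is too small to move the values given above.

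The profile of the neurofilament sum over the 6 libraries was compared with that of every other gene tested, as the root-mean-square difference of log2(CPM + 1) values centred on each gene's mean. The nearest non-member was Snap25, which encodes a core protein of synaptic vesicle fusion, at a difference of 0.060. Then came Stac2 (0.062), Fsd1 (0.066), D230017M19Rik (0.070) and Rcan2 (0.071). Snap25 read 3324, 2470 and 2658 CPM in controls and 1723, 2274 and 1500 CPM in degenerated libraries, with no overlap and a log2 fold change of -0.62 ± 0.20 (SE). Among the members, Nefl, Nefm and Nefh, which are themselves part of the sum, were at 0.055, 0.062 and 0.085, Stmn2 was at 0.229, Uchl1 at 0.330, Tubb3 at 0.353, Mapt at 0.940 and Map2 at 1.59.

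Other genes of the neuronal cytoskeleton were taken in 9 lists of 111 genes, of which 100 had a row and 93 passed the filter. One was called higher and 1 lower by edgeR's quasi-likelihood test, against 2.01% and 0.715% of all genes, and the median log2 fold change of the 93 was -0.01. Plec, which encodes the linker protein plectin, was the gene called higher. It read 15.4, 6.01 and 1.28 CPM in controls and 87.7, 92.6 and 113 CPM in degenerated libraries, a log2 fold change of 3.69 ± 0.85 (SE, adjusted p of 0.327 by edgeR's quasi-likelihood test). Hdac6, the tubulin deacetylase, was the gene called lower. It read 50.0, 48.8 and 42.2 CPM in controls and 9.78, 15.6 and 14.8 CPM in degenerated libraries, a log2 fold change of -1.81 ± 0.24 (SE, adjusted p of 0.138 by the same test). The table listed 8 of 22 annotated transcripts of Plec and 4 of 10 of Hdac6, so these sums are partial too. The call of Hdac6 held whichever library was left out. That of Plec was lost without control 2 and without any 1 of the degenerated libraries, with log2 values between 3.18 and 4.73 over all 6 omissions.

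The other intermediate filament genes and their linkers had a median of 1.04 over 8 genes, of which 5 were positive and 3 negative. The linkers Plec, Dst (2.09 ± 0.94) and Macf1 (0.96 ± 0.73, SE) were among the positive ones. Vim (-0.29 ± 0.24), Nes (-0.35 ± 0.89) and Sync (-0.01 ± 1.25, SE) were the negative ones. Besides Plec, none of the 8 passed the call rule. Gfap, the astroglial filament that is also made by some Schwann cells, read 30.8, 18.4 and 24.8 CPM in controls and 90.9, 49.2 and 20.8 CPM in degenerated libraries. Degenerated 3 lay below 2 of the controls, and the log2 value was 1.12 ± 0.54 (SE). Prph, the peripherin gene that is used as a marker of type II SGNs, was low, with means of 1.01 and 2.50 CPM. The table listed 1 of 4 annotated transcripts of Prph, so this sum is partial and its low level may not hold for the whole gene.

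None of the 7 other tubulins tested was called, and their median log2 fold change was -0.01. The 2 with the smallest p were Tuba8 (-0.41 ± 0.20, SE) and Tubb4a (-0.31 ± 0.26, SE). Among 17 other microtubule-associated proteins (median 0.22), Map7d2 read 225 ± 13.8 CPM in controls and 146 ± 32.6 CPM in degenerated libraries, without overlap, and Map7 read 5.73 ± 0.37 and 10.6 ± 1.93 CPM (SD, n = 3 each). Neither was called. Among 7 other stathmins and collapsin response mediators (median -0.03), Stmn4 had a log2 value of 0.70 ± 0.21 and Dpysl2 one of -0.53 ± 0.24 (SE). The log2 difference for Stmn4, a relative of Stmn2, was thus opposite in sign to that of Stmn2, though neither passed.

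The axonal spectrins and ankyrins (8 genes, median 0.04) and the axonal transport motors (19 genes, median -0.08) held no called gene. Ank1 had a log2 value of -0.43 ± 0.15, Sptbn1 0.47 ± 0.22, Kif5b, a kinesin heavy chain, 0.42 ± 0.16, and Kif1c 0.76 ± 0.30 (SE). The kinases and phosphatase subunits that act on tau and neurofilaments (13 genes, median -0.13) were not called either. Cdk5, the neuronal kinase of Lys-Ser-Pro sites, read 114 ± 8.23 CPM in the control group and 93.9 ± 4.34 CPM (SD, n = 3) in the degenerated group, with a log2 value of -0.28 ± 0.11 (SE), and Gsk3a had -0.55 ± 0.21 (SE). Tubulin folding, modification and severing genes had a median of -0.15 over 12 genes. Of the Uch family of deubiquitinases, Uchl3 had a log2 value of -0.14 ± 0.18 and Bap1 one of 1.55 ± 0.61 (SE).

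**Figure D5:**
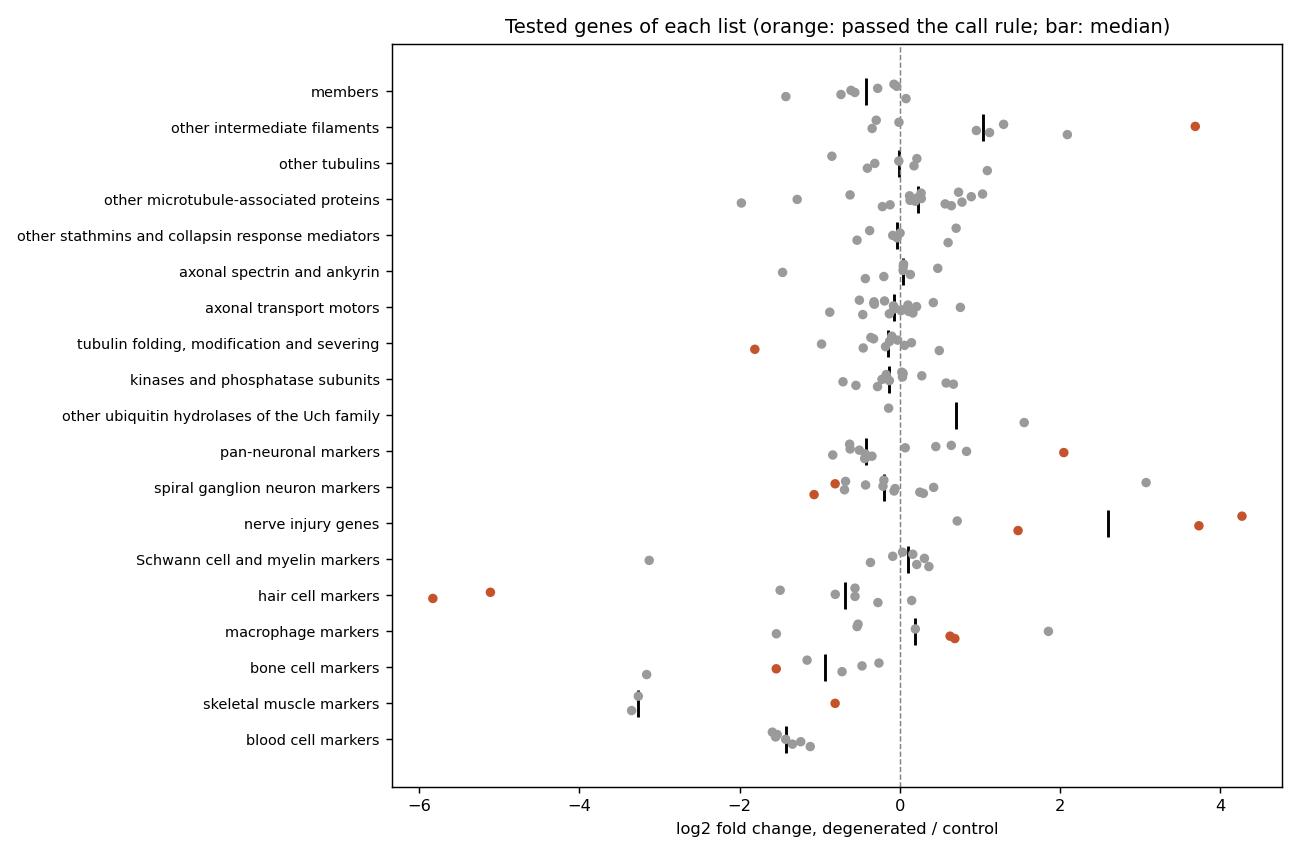
Log2 fold change of every tested gene of the members, the 9 cytoskeletal lists and the 9 marker lists, with 1 point per gene, genes past the call rule in orange and the list median as a bar. The member median lies at -0.42, next to that of the pan-neuronal markers at -0.42. The medians of the 9 cytoskeletal lists lie between -0.15 (tubulin folding, modification and severing) and 1.04 (other intermediate filaments). Those of tubulins, motors and spectrins lie between -0.08 and 0.04.

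Among the markers of neurons and of the response of neurons to injury, called genes pointed in both directions. Of the SGN markers, Pvalb and Calb2, which encode calcium-binding proteins, were called lower, at log2 fold changes of -0.81 ± 0.20 and -1.07 ± 0.29 (SE). The list as a whole had a median of -0.20, with 9 of 13 tested genes negative and 4 positive. Scn1a, a voltage-gated sodium channel gene, had the opposite sign at 3.07 ± 1.18 (SE) without being called. It read at most 8.41 CPM in controls and at least 9.37 CPM in degenerated libraries, with degenerated 2 far above the rest at 83.7 CPM. Pvalb is also a gene of fast muscle, and the other 2 muscle genes tested, Mylpf and Tnni2, had log2 values of -3.35 ± 1.38 and -3.27 ± 1.62 (SE). Control 3 alone was high, since Mylpf read 0.93, 4.39 and 30.5 CPM and Tnni2 1.65, 1.91 and 24.9 CPM in the controls. The part of muscle RNA in the Pvalb result was not tested. Nor was the part of other cells, hair cells among them, in the Pvalb and Calb2 results. Of the pan-neuronal markers, Gap43, a growth cone protein, was called higher, from 6.03 ± 1.46 to 25.0 ± 9.46 CPM (SD, n = 3 each), while Thy1 had a log2 value of -0.63 ± 0.20 and Syn2 one of 0.45 ± 0.13 (SE). That list had a median of -0.42, with 8 of 13 tested genes negative and 5 positive, so Gap43 and Syn2 went against most of it. Of 4 nerve injury genes tested, 3 were called higher, namely Atf3 (1.48 ± 0.21), Sprr1a (4.27 ± 0.85) and Ecel1 (3.73 ± 0.97, log2 fold change ± SE). Sprr1a read at most 1.99 CPM in controls, against 23.8 ± 3.38 CPM (SD, n = 3) with degeneration, and Csrp3 was at 0 in all libraries. With 1 library left out, Atf3, Sprr1a and Gap43 kept their calls. Pvalb (log2 values of -0.93 to -0.62 over the 6 omissions) lost its call without any 1 of the controls, Calb2 (-1.35 to -0.82) without any library other than degenerated 2, and Ecel1 (3.20 to 5.21) without any library other than control 2.

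Called genes were also found among the markers of other cells. Of 8 hair cell markers tested, Ocm and Slc26a5, the genes of oncomodulin and prestin in outer hair cells, were called lower at log2 fold changes of -5.83 ± 0.61 and -5.11 ± 0.60 (SE). The other hair cell markers were not called. Strc (-1.49 ± 0.82, SE) did not overlap between groups. Pou4f3 (-0.81 ± 0.59), Otof (-0.56 ± 0.44), Tmc1 (-0.56 ± 0.56), Myo6 (-0.27 ± 0.64) and Myo7a (0.15 ± 0.42, SE) overlapped. The macrophage markers C1qb and C1qc were called higher (0.69 ± 0.14 and 0.63 ± 0.15, SE), with the list at 565 to 712 CPM in controls and 673 to 880 CPM in degenerated libraries. The other macrophage markers were mixed, and 3 of the 7 tested had negative values without being called, namely Cd68 (-1.54 ± 1.11), Ptprc (-0.53 ± 0.44) and Tyrobp (-0.52 ± 0.47, SE). Bglap, the osteocalcin gene, was called lower (-1.54 ± 0.40, SE), and bone cell markers summed to 1076 to 1697 CPM in degenerated libraries. Of 8 Schwann cell and myelin markers tested, none was called. Blood cell markers summed to 4878 to 20054 CPM in degenerated libraries, their 7 tested genes all had negative log2 values (median -1.43), and none was called. Ocm and Slc26a5 kept their calls with 1 library left out. C1qb, C1qc and Bglap each lost theirs in at least 4 of the 6 omissions, without a change of sign. The part of these other cells in the levels of the neurofilament chains was not tested.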

How the data were processed

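Per the labels, total RNA of the cochlear modiolus was extracted and TruSeq libraries were sequenced. The authors used Hisat2 for alignment and StringTie for expression, and the deposited values are raw counts per Ensembl transcript, without normalization. The submitters' processing notes also name Bowtie (0.12.2), mm8 and mm10. The 65535 listed transcripts were matched to GENCODE M21 (GRCm38), and 263 without a match, 0.125% of counts, were left out. The planned test was for counts per gene, so counts of the listed transcripts were summed per gene, which leaves genes with unlisted transcripts partial. Totals, CPM and TPM likewise cover listed transcripts only, and a gene without a row is not shown to be absent.

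Counts were tested with edgeR (4.0.16, R 4.3.3) by filterByExpr, TMM and the robust quasi-likelihood F test, with Benjamini-Hochberg adjustment over all genes or transcripts tested. CPM are scaled by TMM. The call rule was p under 0.01 before adjustment and a log2 fold change beyond 0.2 in size. Usage was tested with diffSpliceDGE. Tests were checked on simulated data with 4-fold changes, which in the usage test moved both transcripts of a gene in opposite directions. Of the changed genes 72.1%, of transcripts 44.4% and in the usage test 34.1% were recovered, with 0.883%, 0.796% and 0.935% of unchanged ones called. Recovery of differences as small as those of the neurofilament chains was not simulated.

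The named genes were all members, the called genes of each cytoskeletal list (at most 4, or the 2 with the smallest p if none was called), the 3 marker genes with the smallest p of each list, and the 5 genes nearest to the neurofilament sum. Gfap, Prph, Dst, Macf1, Vim, Nes, Sync, Otof, Tmc1, Pou4f3, Myo6, Myo7a, Ptprc and Tyrobp were added after values were seen. So were Snap25's sample values and the sums without Snap25 or Calb2, and not every marker is printed. Members and lists were chosen with earlier results of these data known. The alternatives were limma-voom (limma 3.58.1), edgeR's exact test, DESeq2 (1.42.0), other normalizations and filters, a replicate block and leaving out each library.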

Additional observations from a re-analysis of the deposited data

How the results depend on the processing

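The direction of Nefh, Nefm, Nefl, Stmn2 and Mapt was the same in all 15 analyses of each gene. The number of member genes called was 0 in the main analysis and became 1, Nefh, with no low-count filter (log2 fold change -0.75), in DESeq2 (-0.75) and by the exact test of edgeR (-0.73). Over all genes, 288 were called higher and 136 lower with no low-count filter (22779 tested). Of 14118 genes tested, DESeq2 called 479 higher and 306 lower, and the exact test 283 and 130. Leaving out each library in turn gave 0 to 1, the 1 being Nefh without degenerated replicate 2 (-0.91). That fit called 144 higher and 121 lower of 14674 genes tested. Of member transcripts, 0 were called in the main analysis, 1 with no low-count filter (Nefh-201), 1 with edgeR's exact test and 1 with limma-voom (Mapt-201 in both) and 3 with DESeq2 (Nefh-201, Mapt-201 and Map2-211). Over all transcripts, 331 were called higher and 231 lower with no low-count filter (49183 tested). Of 26065 transcripts tested, the exact test called 378 higher and 201 lower, limma-voom 271 and 182, and DESeq2 657 and 555. Leaving out each library gave 0 to 1, with Map2-211 called without control replicate 1 and Mapt-201 without degenerated replicate 3. Over all transcripts these fits called 412 higher and 230 lower of 28281, and 246 and 187 of 28202. In the usage test, no member transcript had an adjusted p under 0.05 under any alternative, while at p under 0.01 before adjustment Mapt-201 and Mapt-206 passed in the main analysis, with both other normalizations and without control replicate 3, Mapt-201 alone passed without degenerated replicate 2, and neither did in the other 7. With 1 library left out, log2 fold changes ran from -0.91 to -0.53 for Nefh, -0.79 to -0.43 for Nefm, -0.72 to -0.40 for Nefl and -0.36 to -0.18 for Stmn2, and signs turned for Map2 (-0.44 to 0.73), Tubb3 (-0.14 to 0.034), Uchl1 (-0.13 to 0.0065), Tubb3-201 (-0.18 to 0.012) and Map2-201 (-0.77 to 0.63). On the TPM scale members without overlap went from 4 to 0, and back to 4 without the blood list, both being alternatives chosen after seeing the data. The control level of Stmn2 was 164 TPM with its longest transcript as length, against 247. The same replicate number did not pair the libraries, with correlations of deviations of 0.143, -0.086 and 0.066, and not every library was most like its own number. With the replicate block, 0 member genes and 0 member transcripts were called, and Nefh had a log2 fold change of -0.73, while over all genes 160 were called higher and 58 lower, against 284 and 101 without the block. Of 13 list genes called, an addition made after seeing the data, 6 kept the call in all 14 alternatives (Atf3, Gap43, Hdac6, Ocm, Slc26a5 and Sprr1a), and 7 lost it in 4 to 7 of them without a change of sign. The adjusted threshold of 0.05 gave 0 members in the main analysis. With 3 libraries a group, a common biological coefficient of variation of 0.488 per gene limits what can be detected.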
